A study of Mus musculus with 20 samples.

Results

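Ribosome biogenesis and the transcription of ribosomal RNA (rRNA) were followed through 40 genes, the rows of the count table with a listed name, of 22660 rows in all. Of the 40, 39 are protein-coding genes named for their place in the pathway, and the other is Rn18s, the 18S rRNA row, which was selected on its higher share of counts with D + Q in overloaded muscle. All 40 names had a row, and each of the 39 passed the minimum of 10 counts in at least 5 mice in every comparison. Whole plantaris muscle, a calf muscle, was taken from 20 old mice (2 years by the labels), 5 in each of 4 groups that were different animals. Mechanical overload (MOV) lasted 14 days and was made by removing part of the soleus and gastrocnemius muscles, and the other mice had sham surgery. Mice of either surgery were gavaged at days 7 and 10 with D + Q or with vehicle alone. D + Q combines dasatinib, which inhibits tyrosine kinases, at 5 mg/kg with quercetin, a plant flavonoid, at 50 mg/kg, and is used to remove senescent cells. The 4 groups are called vehicle sham and vehicle MOV, D + Q sham and D + Q MOV. The deposited design text places the second gavage of the sham mice at day 14 instead. All mice were old males of the C57BL/6J strain by the study's methods, so no group stands for young muscle.

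A ribosome is built in the nucleolus from rRNA and ribosomal proteins. RNA polymerase I, brought to the rRNA genes by Ubtf and Rrn3, transcribes one long precursor, which small nucleolar ribonucleoproteins (snoRNPs) modify: box C/D particles methylate it and box H/ACA particles turn uridine into pseudouridine. The small subunit processome and the 60S assembly factors then cut and fold the precursor into the 40S and 60S subunits. In skeletal muscle this pathway is known to be engaged early in overload, and the transcription factor Myc is known to drive many of its genes.

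The total count per mouse ranged from 17887532 to 26234518. MOV muscle differed from sham muscle in many genes (edgeR quasi-likelihood test, TMM scaling, adjusted p under 0.05). In vehicle mice 30.7% of 14601 genes tested were higher and 29.8% lower. In D + Q mice 34.4% of 14913 were higher and 30.9% lower. Levels are CPM (counts scaled to a common library size with TMM factors) and are not compared between genes. TMM places the median gene near 0 (log2 fold change -0.02 in vehicle and 0.02 in D + Q mice), whereas scaling by total counts alone places it at 0.36 and 0.39. Every "rose" and "fell" below is therefore a change relative to the typical gene, and 23 of the 47 member calls change sign when totals alone are used. The RNA of cell type markers moved with the surgery. All 8 macrophage and all 6 fibroblast markers rose in both MOV comparisons. The summed macrophage markers were 48.1–126 CPM in vehicle sham and 240–730 CPM in vehicle MOV mice, and 52.1–136 and 539–653 CPM in D + Q mice. The summed fibroblast markers were 379–559 and 4521–9167 CPM in vehicle sham and MOV mice, and 462–984 and 8220–11196 CPM in D + Q mice. All 5 tested markers of dividing cells also rose in both, and of the 9 myofibre markers 6 fell in vehicle and 7 in D + Q mice. The other marker lists were less uniform. Of 6 endothelial markers 4 rose in both. Of 6 satellite cell and myoblast markers 3 rose in both, and 1 fell in D + Q mice. No marker was at 0 in a whole group except 1 of a dividing cell in vehicle sham mice. The part of these marker shifts in the results below was not tested, and in bulk muscle fewer cells of a type and less RNA per cell cannot be told apart.

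Across the 39 protein-coding members, more fell than rose with MOV, in mice of either treatment. In vehicle mice 5 rose and 16 fell, with a median log2 fold change of -0.15 against -0.02 over all genes tested. In D + Q mice 4 rose and 22 fell, with a median of -0.21 against 0.02. The falling members made 41.0% of the 39 in vehicle and 56.4% in D + Q mice, beside 29.8% and 30.9% of all genes. The rising members made 12.8% and 10.3%, beside 30.7% and 34.4%. Under TMM, total counts, RLE size factors and DESeq2 alike, 25 members in vehicle and 26 in D + Q mice lay below the median gene. MOV and sham mice did not overlap for 11 members in vehicle mice (1 higher, 10 lower), where 46.4% of all genes were without overlap. They did not overlap for 21 members with D + Q (2 higher, 19 lower), where 53.0% of genes were without overlap. The falls were small, the largest being to 0.673 of the sham level for Dkc1 in vehicle mice. The sum over all 39 members was 1287–1339 CPM in vehicle sham and 1099.5–1301 CPM in vehicle MOV mice. The same sum was 1281–1419 CPM in D + Q sham and 1108–1190 CPM in D + Q MOV mice.

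**Figure D1:**
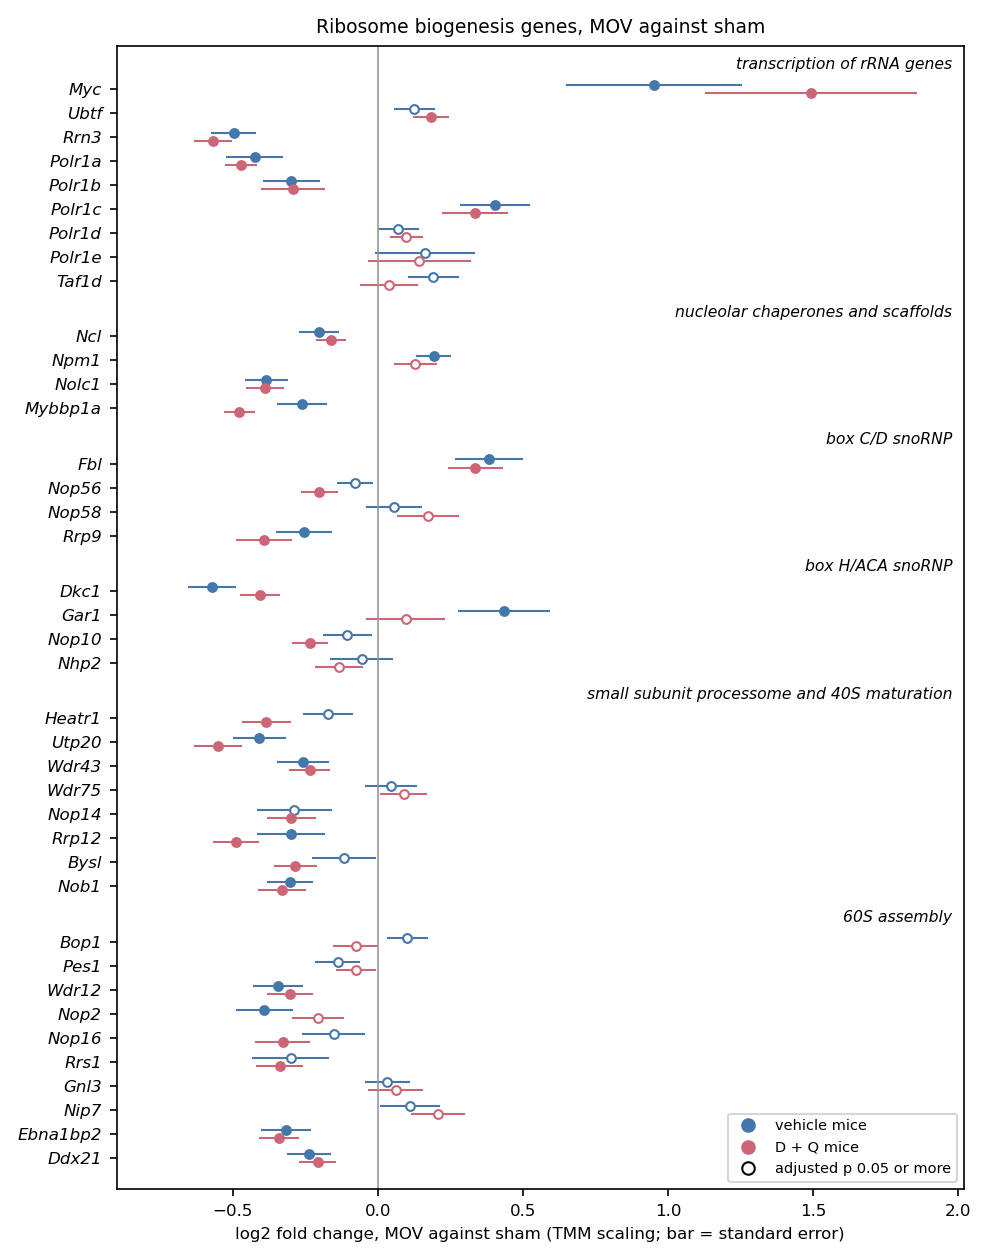
Log2 fold change between MOV and sham mice (x axis, TMM scaling, so 0 is near the median gene) of the 39 protein-coding members, grouped by role, with standard errors as bars. Blue is vehicle and red D + Q, n = 5 mice a group. Filled points passed an adjusted p under 0.05. Myc stands alone on the right, Polr1c and Fbl are higher in both, and most points of the processome and 60S groups lie left of 0. With total counts alone every point moves right by about 0.4, and 23 of 47 calls change sign.

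The members called in the 2 MOV comparisons, which have no mouse in common, were set side by side. Of the 16 that fell in vehicle mice, 15 (93.8%) also fell in D + Q mice, where they made 68.2% of the 22 that fell. These 15 were Ddx21, Dkc1, Ebna1bp2, Mybbp1a, Ncl, Nob1, Nolc1, Polr1a, Polr1b, Rrn3, Rrp12, Rrp9, Utp20, Wdr12 and Wdr43. Myc, Polr1c and Fbl rose in both, which is 3 of the 5 that rose in vehicle and 3 of the 4 that rose in D + Q mice. Such sharing was general. Over the 14442 genes tested in both comparisons, 87.2% of those that fell in vehicle mice also fell in D + Q mice, where they made 82.3%, and the shares for rises were 92.8% and 83.4%. By edgeR Nop2 passed the test for a fall in vehicle mice alone, and Bysl, Heatr1, Nop10, Nop14, Nop16, Nop56 and Rrs1 in D + Q mice alone. By DESeq2 the fall of Nop2 passed in D + Q mice as well. Whether the response differed with treatment was tested as the interaction of surgery and treatment over all 20 mice. By edgeR 0 of 39 members passed, beside 0.0127% of 15700 genes, and DESeq2 and limma-voom also gave 0. An unadjusted p under 0.05 was reached by 2 of 39 members by edgeR, Mybbp1a and Heatr1, both more negative with D + Q, beside 5.71% of all genes. The lowest adjusted p was 0.809 (edgeR), for Mybbp1a, whose interaction estimate was -0.25 ± 0.10 on the log2 scale. The standard error of the interaction ranged from 0.08 for Ncl to 0.51 for Myc over the members, and the Myc estimate was 0.51.

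Among the genes that start rRNA transcription, Myc rose and the polymerase's own initiation factor and largest subunits fell. Myc, a transcription factor that promotes growth and rRNA synthesis, measured 2.94, 3.91, 2.42, 2.78 and 3.11 CPM in the vehicle sham mice and 3.91, 3.37, 4.63, 11.4 and 5.88 CPM in the vehicle MOV mice. In the D + Q sham mice Myc measured 3.30, 3.41, 1.90, 3.78 and 2.59 CPM and in the D + Q MOV mice 5.38, 4.80, 7.04, 7.26 and 16.7 CPM. The gene lies at chr15:61857227-61862223 in GRCm39. Every D + Q MOV mouse was above every D + Q sham mouse, whereas the lowest 2 vehicle MOV mice were within the sham range, and 1 mouse in each MOV group stood far above its group. The rise was 1.93-fold in vehicle mice (log2 fold change 0.95, SE 0.30, edgeR adjusted p = 0.0153) and 2.81-fold in D + Q mice (log2 fold change 1.49, SE 0.36, edgeR adjusted p = 0.00416). Without vehicle MOV replicate 4 the vehicle estimate dropped to 0.58 (edgeR adjusted p = 0.0236), and without D + Q MOV replicate 5 the D + Q estimate dropped to 1.08 (edgeR adjusted p = 1.67e-04).

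Rrn3 (TIF-IA), which links RNA polymerase I to the rRNA promoter and is known to be set by growth signals, fell in both treatments. Rrn3 measured 54.2, 56.01, 55.3, 49.7 and 50.5 CPM in vehicle sham and 38.4, 39.3, 36.2, 31.6 and 41.9 CPM in vehicle MOV mice. It measured 57.3, 52.6, 52.04, 58.6 and 50.3 CPM in D + Q sham and 34.4, 38.4, 32.9, 38.3 and 33.98 CPM in D + Q MOV mice. The gene lies at chr16:13598376-13635974 in GRCm39. All 10 MOV mice were below all 10 sham mice. The level fell to 0.709 of sham in vehicle mice (log2 fold change -0.50, SE 0.08, edgeR adjusted p = 5.53e-05) and to 0.675 in D + Q mice (log2 fold change -0.57, SE 0.07, edgeR adjusted p = 6.45e-07). Polr1a, the catalytic and largest subunit of RNA polymerase I, measured 64.5, 66.1, 67.6, 60.9 and 65.2 CPM in vehicle sham and 47.9, 52.03, 47.5, 35.8 and 57.4 CPM in vehicle MOV mice. Polr1a measured 59.97, 60.2, 57.8, 64.3 and 61.2 CPM in D + Q sham and 40.6, 44.4, 40.5, 44.3 and 43.2 CPM in D + Q MOV mice. The groups did not overlap in either treatment, and the log2 fold changes were -0.42 ± 0.10 (edgeR adjusted p = 0.00167) and -0.47 ± 0.06 (edgeR adjusted p = 7.08e-07). Polr1b, the second largest subunit, had log2 fold changes of -0.30 ± 0.10 (edgeR adjusted p = 0.0161) in vehicle and -0.29 ± 0.11 (edgeR adjusted p = 0.0257) in D + Q mice, and its groups overlapped in D + Q mice. The vehicle Polr1b call was lost without vehicle sham replicate 1 or vehicle MOV replicate 3 (log2 fold change -0.25 to -0.23, edgeR adjusted p = 0.0514 to 0.0580). The D + Q call was lost without D + Q sham replicate 1 or 4 or D + Q MOV replicate 3, 4 or 5 (log2 fold change -0.26 to -0.22, edgeR adjusted p = 0.0619 to 0.0829).

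Polr1c, a subunit that RNA polymerase I shares with RNA polymerase III, went the other way. It measured 8.54, 11.6, 9.18, 7.64 and 7.63 CPM in vehicle sham and 11.8, 12.5, 10.3, 12.1 and 11.9 CPM in vehicle MOV mice. Polr1c measured 9.63, 7.38, 8.19, 9.37 and 7.97 CPM in D + Q sham and 9.86, 9.94, 10.6, 9.05 and 12.8 CPM in D + Q MOV mice. The gene lies at chr17:46554843-46559126 in GRCm39. The groups overlapped in both treatments, in vehicle mice through 1 sham mouse at 11.6 CPM. The rise was 1.32-fold (log2 fold change 0.40, SE 0.12, edgeR adjusted p = 0.00945) in vehicle and 1.26-fold (log2 fold change 0.33, SE 0.11, edgeR adjusted p = 0.0160) in D + Q mice. The latter call was lost without D + Q MOV replicate 5 (log2 fold change 0.26, edgeR adjusted p = 0.0548). Ubtf, which keeps rRNA genes in an open state, rose in D + Q mice, from 52.8–63.9 CPM in sham to 62.96–68.3 CPM in MOV (log2 fold change 0.18, SE 0.06, edgeR adjusted p = 0.0151). In vehicle mice its log2 fold change was 0.13 ± 0.07 (edgeR adjusted p = 0.137). The Ubtf call was lost with all 20 mice in 1 fit (edgeR adjusted p = 0.0687) and without D + Q sham replicate 5 (log2 fold change 0.14, edgeR adjusted p = 0.0621). The polymerase subunits Polr1d and Polr1e, and Taf1d of the promoter selectivity factor, passed in neither treatment. Their log2 fold changes were 0.07, 0.16 and 0.19 in vehicle and 0.10, 0.14 and 0.04 in D + Q mice.

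**Figure D2:**
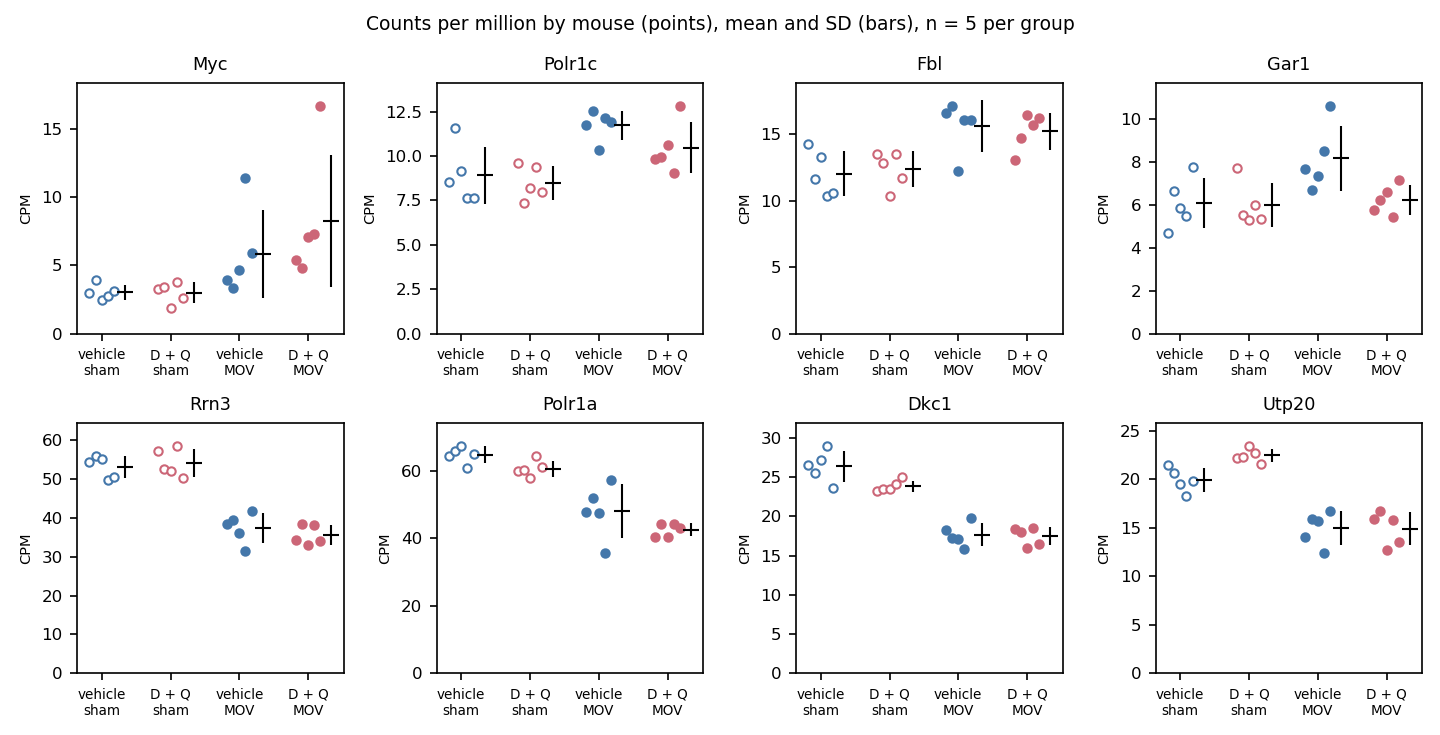
CPM (y axis, from 0, TMM scaling) of 8 members in each mouse (points) with the group mean and SD (bars), n = 5 mice in each of the 4 groups. Myc, Polr1c and Fbl are higher in MOV, Gar1 is higher in vehicle MOV mice, and for Rrn3, Polr1a, Dkc1 and Utp20 all MOV mice lie below all sham mice of the same treatment. Of these 8, the falls of Rrn3, Polr1a, Dkc1 and Utp20 keep their sign under total counts alone.

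The start regions of these genes were read for sequence features that the choice of members did not use. The windows come from an older build than the counts, and no coordinate was carried between builds. RefSeq promoter windows (GRCm38.p6, 250 bases before to 50 after each annotated start) were found for 33 of the 40 members, in 40 windows, and Myc, Fbl and Npm1 were among those without one. The E-box CACGTG, the site bound by Myc with Max, was in 6 of 40 member windows (15%) and in 7.15% of all 32851 windows. The letters CCGGAAG of the ETS family site were in 10 member windows (25%) and in 8.86% of all. CGCATGCG, the core of the NRF1 site, was in 2 (5%) and in 1.87% of all, and TCTCGCGA in 3 (7.5%) and in 0.995% of all. Both strands were searched for each, none of the 4 contains another, and a match is a description of letters and not of binding. Of the 6 genes with an E-box, Rrn3, Mybbp1a, Utp20 and Wdr43 fell in both treatments by edgeR. Nop2 fell in vehicle mice by edgeR and in both treatments by DESeq2, and Pes1 passed in neither treatment by edgeR. The E-boxes of Rrn3, which fell, and Nop2 lie before the start, and Polr1c, which rose, has no E-box in its window. The 250 bases before the start of these 3 genes are printed 5′ to 3′ on the strand of the gene, with matches to any of the 4 motifs in capitals. They are examples and do not stand for all members that fell or rose. Most members that fell in both treatments had a window without an E-box, namely Dkc1, Polr1a, Polr1b, Ncl, Nolc1, Nob1, Wdr12, Ebna1bp2, Ddx21 and Rrp9.
Rrn3 (chr16:13780449-13780698, plus strand): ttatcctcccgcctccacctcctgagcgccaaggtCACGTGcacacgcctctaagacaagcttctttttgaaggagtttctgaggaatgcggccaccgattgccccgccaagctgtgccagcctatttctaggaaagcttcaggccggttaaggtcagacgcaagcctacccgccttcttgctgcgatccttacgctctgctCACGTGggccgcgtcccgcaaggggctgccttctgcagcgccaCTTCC
Nop2 (chr6:125131633-125131882, plus strand): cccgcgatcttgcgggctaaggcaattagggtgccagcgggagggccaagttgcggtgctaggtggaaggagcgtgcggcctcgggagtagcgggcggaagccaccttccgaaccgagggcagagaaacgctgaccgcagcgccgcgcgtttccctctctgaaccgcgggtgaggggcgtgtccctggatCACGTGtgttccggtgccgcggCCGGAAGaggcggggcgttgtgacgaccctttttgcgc
Polr1c (chr17:46248046-46248295, minus strand): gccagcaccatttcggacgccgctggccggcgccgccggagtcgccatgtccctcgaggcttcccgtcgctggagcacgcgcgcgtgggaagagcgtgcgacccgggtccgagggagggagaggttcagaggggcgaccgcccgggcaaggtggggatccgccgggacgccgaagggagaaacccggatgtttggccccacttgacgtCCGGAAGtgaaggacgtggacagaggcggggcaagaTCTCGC
In Rrn3 the 2 E-boxes start 215 and 48 bases before the start, and in Nop2 the E-box starts 60 bases before it. In Polr1c the CCGGAAG match starts 42 bases before the start and the TCTCGCGA match 6 bases before it. The last letters of the latter, and of the CCGGAAG match on the other strand of Rrn3, run past the printed stretch.

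Of the 4 nucleolar chaperones and scaffolds, 3 (75%) fell in both treatments, where 29.8% of all genes fell in vehicle and 30.9% in D + Q mice. Ncl (nucleolin), which binds nascent rRNA, measured 189–212 CPM in vehicle sham and 149.9–188 CPM in vehicle MOV mice. With D + Q it measured 190.1–209.9 CPM in sham and 167–179.6 CPM in MOV mice, and neither pair of groups overlapped. Its log2 fold changes were -0.20 ± 0.07 (edgeR adjusted p = 0.0206) and -0.16 ± 0.05 (edgeR adjusted p = 0.0114). Nolc1 (Nopp140), which escorts snoRNPs to the nucleolus, measured 37.2, 39.8, 34.996, 34.97 and 37.2 CPM in vehicle sham and 30.3, 27.96, 24.9, 26.4 and 30.7 CPM in vehicle MOV mice. Nolc1 measured 37.3, 34.6, 42.4, 39.7 and 36.97 CPM in D + Q sham and 27.2, 30.4, 27.6, 27.1 and 29.7 CPM in D + Q MOV mice. Here too no MOV mouse reached the sham range, and the log2 fold changes were -0.38 ± 0.07 (edgeR adjusted p = 3.61e-04) and -0.39 ± 0.07 (edgeR adjusted p = 5.10e-05). Mybbp1a, a nucleolar protein that restrains rRNA transcription, measured 91.8, 88.95, 90.1, 90.6 and 84.7 CPM in vehicle sham and 72.1, 84.3, 66.5, 62.2 and 86.02 CPM in vehicle MOV mice. Mybbp1a measured 93.8, 88.6, 99.6, 97.6 and 97.1 CPM in D + Q sham and 65.6, 70.2, 64.05, 65.5 and 67.8 CPM in D + Q MOV mice. The vehicle groups overlapped through the highest MOV mouse and the D + Q groups were far apart. The log2 fold changes were -0.26 ± 0.09 (edgeR adjusted p = 0.0166) and -0.48 ± 0.05 (edgeR adjusted p = 4.27e-07). The vehicle call of Mybbp1a was lost without vehicle MOV replicate 1, 3 or 4 (log2 fold change -0.23 to -0.19, edgeR adjusted p = 0.0508 to 0.0621). That of Ncl was lost without vehicle sham replicate 1 or vehicle MOV replicate 1 or 4 (log2 fold change -0.19 to -0.14, edgeR adjusted p = 0.0528 to 0.0646).

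Npm1 (nucleophosmin), the chaperone that exports ribosomal subunits, did not follow them. It measured 85.8, 76.6, 83.4, 84.9 and 86.9 CPM in vehicle sham and 98.9, 92.2, 90.7, 95.6 and 97.6 CPM in vehicle MOV mice, with every MOV mouse above every sham mouse (log2 fold change 0.19, SE 0.06, edgeR adjusted p = 0.0118). Npm1 measured 80.1, 86.2, 95.7, 105 and 79.3 CPM in D + Q sham and 92.7, 90.9, 99.98, 91.4 and 101 CPM in D + Q MOV mice, which overlapped (log2 fold change 0.13, SE 0.07, edgeR adjusted p = 0.130). The difference between the treatments in this response was not detectable (edgeR interaction -0.10 ± 0.10, adjusted p = 0.942).

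The transcripts for the proteins of one snoRNP did not all move alike. Fbl (fibrillarin), the methyltransferase of the box C/D particle, measured 14.2, 11.6, 13.3, 10.4 and 10.6 CPM in vehicle sham and 16.6, 17.1, 12.3, 16.1 and 16.04 CPM in vehicle MOV mice. Fbl measured 13.5, 12.8, 10.3, 13.5 and 11.7 CPM in D + Q sham and 13.04, 14.7, 16.4, 15.7 and 16.2 CPM in D + Q MOV mice. It rose 1.30-fold in vehicle (log2 fold change 0.38, SE 0.12, edgeR adjusted p = 0.0100) and 1.26-fold in D + Q mice (log2 fold change 0.34, SE 0.10, edgeR adjusted p = 0.00505). In each MOV group 1 mouse was within the sham range. The gene lies at chr7:27868353-27878701 in GRCm39. Of its partners in the same particle, Nop56 measured -0.08 ± 0.06 (edgeR adjusted p = 0.302) in vehicle mice. It fell in D + Q mice from 29.7–35.03 CPM in sham to 25.8–28.8 CPM in MOV, without overlap (log2 fold change -0.20, SE 0.06, edgeR adjusted p = 0.0100). Nop58 passed in neither treatment, at 0.05 and 0.17. Rrp9, which is specific to the U3 particle that starts cleavage of the precursor, fell by 0.25 ± 0.09 (edgeR adjusted p = 0.0305) on the log2 scale in vehicle and by 0.39 ± 0.10 (edgeR adjusted p = 0.00168) in D + Q mice. The vehicle Rrp9 call was lost without vehicle sham replicate 2 or 5 or vehicle MOV replicate 1, 2, 3 or 4 (log2 fold change -0.24 to -0.19, edgeR adjusted p = 0.0601 to 0.0903).

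Dkc1 (dyskerin), the pseudouridine synthase of the box H/ACA particle and also a part of telomerase, had the largest fall of any member in vehicle mice. It measured 26.6, 25.5, 27.2, 29.002 and 23.6 CPM in vehicle sham and 18.3, 17.2, 17.1, 15.8 and 19.8 CPM in vehicle MOV mice. Dkc1 measured 23.2, 23.4, 23.4, 24.1 and 24.9 CPM in D + Q sham and 18.4, 17.998, 15.9, 18.6 and 16.5 CPM in D + Q MOV mice, so that all 10 MOV mice were below all 10 sham mice. It fell to 0.673 of sham in vehicle (log2 fold change -0.57, SE 0.08, edgeR adjusted p = 2.69e-05) and to 0.754 in D + Q mice (log2 fold change -0.41, SE 0.07, edgeR adjusted p = 5.15e-05). The gene lies at chrX:74139460-74155456 in GRCm39. Its partner Gar1 measured 4.69, 6.67, 5.86, 5.50 and 7.75 CPM in vehicle sham and 7.70, 6.68, 7.35, 8.49 and 10.6 CPM in vehicle MOV mice, an overlapping rise of 1.35-fold (log2 fold change 0.43, SE 0.16, edgeR adjusted p = 0.0279). This call was lost without vehicle sham replicate 1, 3 or 4 or vehicle MOV replicate 5 (log2 fold change 0.34 to 0.42, edgeR adjusted p = 0.0540 to 0.0780). Gar1 measured 7.74, 5.55, 5.31, 6.02 and 5.33 CPM in D + Q sham and 5.77, 6.22, 6.61, 5.42 and 7.17 CPM in D + Q MOV mice (log2 fold change 0.10, SE 0.14, edgeR adjusted p = 0.551). Nop10 fell in D + Q mice (-0.23 ± 0.06, edgeR adjusted p = 0.00322), at -0.10 in vehicle mice, and Nhp2 passed in neither, at -0.06 and -0.13.

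Of the 8 small subunit processome and 40S maturation members, 0 rose in either treatment (edgeR and DESeq2, and also 0 at an unadjusted p under 0.05), and 4 fell in vehicle and 7 in D + Q mice. The falls made 50% and 87.5% of the 8, beside 29.8% and 30.9% of all genes. Utp20, a large scaffold of the processome, measured 21.5, 20.7, 19.5, 18.3 and 19.8 CPM in vehicle sham and 14.02, 15.9, 15.7, 12.4 and 16.8 CPM in vehicle MOV mice. Utp20 measured 22.2, 22.3, 23.5, 22.8 and 21.6 CPM in D + Q sham and 15.9, 16.7, 12.7, 15.8 and 13.5 CPM in D + Q MOV mice. The gene lies at chr10:88582469-88662699 in GRCm39. All MOV mice were below all sham mice, and it fell to 0.753 (log2 fold change -0.41, SE 0.09, edgeR adjusted p = 0.00129) and 0.683 of sham (log2 fold change -0.55, SE 0.08, edgeR adjusted p = 1.36e-05). Rrp12, which takes part in export of both subunits, fell in D + Q mice from 57.7–73.2 CPM in sham to 37.3–49.2 CPM in MOV (log2 fold change -0.49, SE 0.08, edgeR adjusted p = 3.47e-05). In vehicle mice its 5 MOV values were 46.6, 57.7, 41.3, 38.5 and 63.8 CPM, of which 4 were below and 1 above the sham range of 58.7–62.7 CPM. That fall (log2 fold change -0.30, SE 0.12, edgeR adjusted p = 0.0407) was lost without vehicle sham replicate 1, 2, 3, 4 or 5 or vehicle MOV replicate 1, 3 or 4 (log2 fold change -0.31 to -0.20, edgeR adjusted p = 0.0568 to 0.122). Nob1, the nuclease that makes the end of mature 18S rRNA, fell without overlap in both treatments, by 0.30 ± 0.08 (edgeR adjusted p = 0.00378) and 0.33 ± 0.08 (edgeR adjusted p = 0.00186) on the log2 scale. Wdr43, a processome subunit, had log2 fold changes of -0.26 ± 0.09 (edgeR adjusted p = 0.0213) in vehicle and -0.24 ± 0.07 (edgeR adjusted p = 0.00731) in D + Q mice. The vehicle Wdr43 call was lost without vehicle sham replicate 1 or vehicle MOV replicate 1, 3 or 4 (log2 fold change -0.22 to -0.19, edgeR adjusted p = 0.0569 to 0.0792).

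Heatr1, Nop14 and Bysl fell in D + Q mice. Heatr1, a processome subunit that also acts on RNA polymerase I transcription, measured 14.2, 12.8, 13.8, 13.4 and 14.98 CPM in vehicle sham and 11.7, 11.7, 12.4, 13.4 and 11.9 CPM in vehicle MOV mice (log2 fold change -0.17, SE 0.09, edgeR adjusted p = 0.0979). Heatr1 measured 18.2, 18.2, 18.1, 16.1 and 14.8 CPM in D + Q sham and 12.9, 13.2, 13.5, 12.3 and 11.7 CPM in D + Q MOV mice (log2 fold change -0.38, SE 0.08, edgeR adjusted p = 6.12e-04). The D + Q sham group was the highest of the 4 on average and overlapped no MOV mouse, and the MOV groups covered much the same range, at 11.7–13.4 and 11.7–13.5 CPM. Nop14 had log2 fold changes of -0.29 ± 0.13 (edgeR adjusted p = 0.0674) and -0.30 ± 0.08 (edgeR adjusted p = 0.00485) in vehicle and D + Q mice, nearly the same size. Those of Bysl were -0.12 ± 0.11 (edgeR adjusted p = 0.385) and -0.28 ± 0.07 (edgeR adjusted p = 0.00257). Wdr75, a processome subunit, passed in neither treatment, at 0.05 and 0.09.

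Of the 10 members that assemble the 60S subunit, 4 (40%) fell in vehicle and 5 (50%) in D + Q mice, beside 29.8% and 30.9% of all genes. In either treatment 0 rose by edgeR and by DESeq2, and at an unadjusted p under 0.05 there were 0 in vehicle and 1, Nip7, in D + Q mice. Pes1, Bop1 and Wdr12 form a complex that works as one unit in processing of the large subunit rRNA. Of these 3 genes only Wdr12 passed, and the difference between the genes was not tested. Wdr12 fell without overlap from 23.3–24.8 CPM to 15.3–21.2 CPM in vehicle and from 19.9–24.5 CPM to 15.3–19.4 CPM in D + Q mice. Its log2 fold changes were -0.34 ± 0.09 (edgeR adjusted p = 0.00270) and -0.30 ± 0.08 (edgeR adjusted p = 0.00283). Pes1 measured -0.14 and -0.07 and Bop1 0.10 and -0.08, and neither passed. Nop2, a methyltransferase of the large subunit rRNA, measured 20.4, 22.6, 24.9, 18.2 and 21.8 CPM in vehicle sham and 17.1, 16.8, 16.1, 13.7 and 18.2 CPM in vehicle MOV mice (log2 fold change -0.39, SE 0.10, edgeR adjusted p = 0.00304). Nop2 measured 20.3, 19.2, 18.6, 19.3 and 16.96 CPM in D + Q sham and 17.5, 17.8, 13.2, 16.4 and 14.7 CPM in D + Q MOV mice (log2 fold change -0.21, SE 0.09, edgeR adjusted p = 0.0539), where MOV and sham mice overlapped. Between the 2 sham groups Nop2 measured -0.21 ± 0.09 (edgeR adjusted p = 0.431) with D + Q against vehicle.

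Ebna1bp2, an early 60S assembly factor, fell by 0.32 ± 0.09 (edgeR adjusted p = 0.00484) and 0.34 ± 0.07 (edgeR adjusted p = 2.91e-04) on the log2 scale in vehicle and D + Q mice. Ddx21, a nucleolar RNA helicase, fell by 0.24 ± 0.08 (edgeR adjusted p = 0.0129) and 0.21 ± 0.06 (edgeR adjusted p = 0.00791) on the same scale. The vehicle Ddx21 call was lost without vehicle MOV replicate 2 (log2 fold change -0.19, edgeR adjusted p = 0.0513). Rrs1, which brings the 5S particle into the 60S precursor, and Nop16 fell in D + Q mice, by 0.34 ± 0.08 (edgeR adjusted p = 0.00146) and 0.33 ± 0.10 (edgeR adjusted p = 0.00586), and measured -0.30 and -0.15 in vehicle mice. Rrs1 was widely spread in vehicle sham mice, at 16.8, 25.2, 21.2, 16.8 and 28.1 CPM. Gnl3 (nucleostemin) and Nip7 passed in neither treatment, at 0.03 and 0.11 in vehicle and 0.06 and 0.21 in D + Q mice. For Nip7 every D + Q MOV mouse was nonetheless above every D + Q sham mouse (10.1–11.7 CPM in MOV against 8.68–10.05 CPM in sham).

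Of the 39 genes, 31 overlap a gene on the opposite strand in the GENCODE annotation of GRCm39, taken over whole gene spans with introns. The share over all genes was not computed, so this is not a trait particular to the members. Whether counting used strand is not given in the sources used here, so reads of such pairs may be mixed. A further feature was shared by 7 members, Taf1d, Ncl, Nop56, Nop58, Dkc1, Wdr43 and Gnl3: they overlap small RNA genes on their own strand, such as Snord57 and Snord110 within Nop56, Snord11 and Snord70 within Nop58 and Snord53 and Snord92 within Wdr43. Of these 7, Ncl, Dkc1 and Wdr43 fell in both treatments, Nop56 fell in D + Q mice and Taf1d, Nop58 and Gnl3 passed in neither.

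The wider pathway was read through lists of genes that hold no member. In the 4 lists of other biogenesis genes, together 158 genes tested, 9 rose and 59 fell in vehicle mice (median log2 fold change -0.13) and 11 rose and 63 fell in D + Q mice (median -0.17). The falls made 37.3% and 39.9% of these genes, beside 29.8% and 30.9% of all genes tested, and the rises 5.70% and 6.96%, beside 30.7% and 34.4%. Of 52 other small subunit processome and 40S maturation factors, 2 rose and 23 (44.2%) fell in vehicle and 3 rose and 23 fell in D + Q mice. Nol7 and Krr1 had the largest falls in vehicle mice, at -0.57 ± 0.06 (edgeR adjusted p = 1.44e-06) and -0.52 ± 0.07 (edgeR adjusted p = 1.39e-05). Tsr1 and Pwp2 had the largest in D + Q mice, at -0.60 ± 0.08 (edgeR adjusted p = 1.72e-06) and -0.56 ± 0.07 (edgeR adjusted p = 3.21e-06). The largest rises were those of the kinase Riok1 (0.31) and Rrp36 (0.31) in vehicle mice and of Utp18 (0.67) and Riok1 (0.34) in D + Q mice. The Rrp36 call was lost without vehicle sham replicate 1 (log2 fold change 0.24, edgeR adjusted p = 0.0648). Of 62 other 60S assembly factors, 3 rose and 23 (37.1%) fell in vehicle and 2 rose and 25 (40.3%) fell in D + Q mice. Their largest falls were Bccip (-0.49) and Ddx24 (-0.46) in vehicle and Ddx24 (-0.54) and Las1l (-0.51) in D + Q mice. Their largest rises were Npm3 (0.44) and Eif6 (0.25) in vehicle and Nsa2 (0.19) and Ddx54 (0.14) in D + Q mice. The call of Eif6 was lost without vehicle sham replicate 1, 2, 4 or 5 or vehicle MOV replicate 5 (log2 fold change 0.20 to 0.24, edgeR adjusted p = 0.0594 to 0.0766). The call of Ddx54 was lost without D + Q sham replicate 1, 2, 3 or 5 or D + Q MOV replicate 1, 3, 4 or 5 (log2 fold change 0.10 to 0.15, edgeR adjusted p = 0.0526 to 0.141). Each of these lists turns under total counts alone, so their falls too are relative to the typical gene. The small subunit factors were then 23 higher and 1 lower in vehicle and 22 and 3 in D + Q mice. The 60S factors were 29 and 0 in vehicle and 34 and 1 in D + Q mice. Of all genes, 52.6% were higher and 9.95% lower under that scaling in vehicle mice, and 56.3% and 11.1% in D + Q mice.

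Of 28 snoRNP assembly, exosome and rRNA processing genes, 3 rose and 9 (32.1%) fell in vehicle and 4 rose and 11 (39.3%) fell in D + Q mice, beside 29.8% and 30.9% of all genes. Znhit3, which assembles box C/D particles, and Mtrex, the helicase that feeds the nuclear exosome, fell in both. Their log2 fold changes were -0.59 ± 0.11 (edgeR adjusted p = 2.18e-04) and -0.54 ± 0.07 (edgeR adjusted p = 7.33e-06) in vehicle mice. With D + Q they were -0.51 ± 0.13 (edgeR adjusted p = 0.00183) and -0.53 ± 0.07 (edgeR adjusted p = 1.58e-06). Isg20l2, a nuclease of rRNA processing, and Mphosph6, an exosome cofactor, rose in both, by 0.56 and 0.43 and by 0.50 and 0.68 on the log2 scale. The vehicle call of Mphosph6 was lost without vehicle sham replicate 2, 3 or 4 or vehicle MOV replicate 1 or 3 (log2 fold change 0.35 to 0.44, edgeR adjusted p = 0.0502 to 0.0804). Of 17 other RNA polymerase I genes, 1 rose and 4 (23.5%) fell in vehicle and 2 rose and 4 fell in D + Q mice, a share of falls below that of all genes. The one that rose in both was Sirt7, a deacetylase known to activate RNA polymerase I. It went from 4.27–6.73 CPM to 8.65–11.996 CPM in vehicle mice (log2 fold change 0.87, SE 0.14, edgeR adjusted p = 6.31e-05). The D + Q mice went from 4.66–5.95 CPM to 9.94–13.3 CPM (log2 fold change 1.05, SE 0.12, edgeR adjusted p = 3.41e-07). Baz2a, a silencer of rRNA genes, rose in D + Q mice, by 0.23 ± 0.07 (edgeR adjusted p = 0.00757). Kat2b, an acetyltransferase that acts on the promoter selectivity factor, had the largest fall in both. It went from 95.6–121 CPM to 62.7–78.4 CPM in vehicle mice (log2 fold change -0.67, SE 0.09, edgeR adjusted p = 8.53e-06), and its log2 fold change with D + Q was -0.60 ± 0.07 (edgeR adjusted p = 3.49e-07). The next were Polr1f, a subunit of the polymerase stalk, at -0.40 ± 0.09 (edgeR adjusted p = 0.00126) in vehicle mice and Taf1a at -0.45 ± 0.15 (edgeR adjusted p = 0.0126) in D + Q mice. The Taf1a call was lost without D + Q sham replicate 4 (log2 fold change -0.33, edgeR adjusted p = 0.0515). Under total counts alone the processing list had 18 rises and 0 falls in vehicle and 12 and 1 in D + Q mice, and the polymerase I list 10 and 1 and 9 and 1. Of all genes, 52.6% then rose and 9.95% fell in vehicle mice, and 56.3% and 11.1% in D + Q mice. Sirt7, Isg20l2 and Mphosph6 were higher and Kat2b lower under that scaling too.

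RNA polymerase III makes 5S rRNA and transfer RNA. Of the 22 genes in its list, 10 (45.5%) fell in vehicle and 11 (50%) in D + Q mice by edgeR (9 and 11 by DESeq2). Of all genes tested, 30.7% rose and 29.8% fell in vehicle mice, and 34.4% and 30.9% in D + Q mice. Total counts alone gave this list 8 rises and 0 falls in vehicle and 10 and 2 in D + Q mice. Of all genes, 52.6% then rose and 9.95% fell in vehicle mice, and 56.3% and 11.1% in D + Q mice. The RNA polymerase III list holds no member and so leaves out Polr1c, the shared subunit that rose in both treatments. Under TMM this list had 0 rises in either treatment by edgeR or DESeq2, and 0 at an unadjusted p under 0.05. Its largest falls were Gtf3c6 (-0.53) and Polr3k (-0.50) in vehicle mice and Maf1 (-0.57), itself a repressor of this polymerase, and Polr3c (-0.56) in D + Q mice. Of 14 Myc partners and antagonists, 4 (28.6%) rose and 6 (42.9%) fell in vehicle and 3 (21.4%) rose and 7 (50%) fell in D + Q mice. Mxd3, a Max partner that opposes Myc and is known from dividing cells, had at most 4 counts in any sham mouse and 14 to 42 counts in vehicle MOV and 10 to 49 counts in D + Q MOV mice. Mxd4, another such antagonist, rose in D + Q mice from 36.3–45.3 CPM to 71.95–87.3 CPM (log2 fold change 0.99, SE 0.07, edgeR adjusted p = 1.83e-09) and also in vehicle mice (0.76, edgeR adjusted p = 2.85e-07). Mycn, a Myc paralog with at most 10 counts in any vehicle sham mouse, rose in vehicle mice (log2 fold change 1.33, SE 0.51, edgeR adjusted p = 0.0352), and its estimate in D + Q mice was 1.03 (edgeR adjusted p = 0.0946). This Mycn call was lost without vehicle sham replicate 1 or 3 (log2 fold change 1.08 to 1.22, edgeR adjusted p = 0.0741 to 0.0771). Mxi1, also an antagonist, fell in both (-0.55 in vehicle and -0.50 in D + Q mice), as did Mlxipl (-0.39 and -0.33) and Mlxip (-0.32 and -0.57). Of 15 snoRNA host genes, 5 (33.3%) rose and 2 (13.3%) fell in vehicle and 6 (40%) rose and 4 (26.7%) fell in D + Q mice. The rises were near the 30.7% and 34.4% of all genes, of which 29.8% and 30.9% fell. Snhg18 had the largest rise in both, from 1.67–3.42 CPM to 6.88–9.37 CPM in vehicle mice (log2 fold change 1.59, SE 0.17, edgeR adjusted p = 1.92e-06) and by 1.63 on the log2 scale with D + Q. Snhg15 followed (0.78 and 1.04), and Snhg14 (-0.92 and -0.79) and Snhg16 (-0.85 and -0.92) fell in both. Under total counts alone the Myc list had 8 rises and 0 falls in vehicle and 8 and 1 in D + Q mice, and the snoRNA hosts 10 and 2 and 9 and 2.

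**Figure D3:**
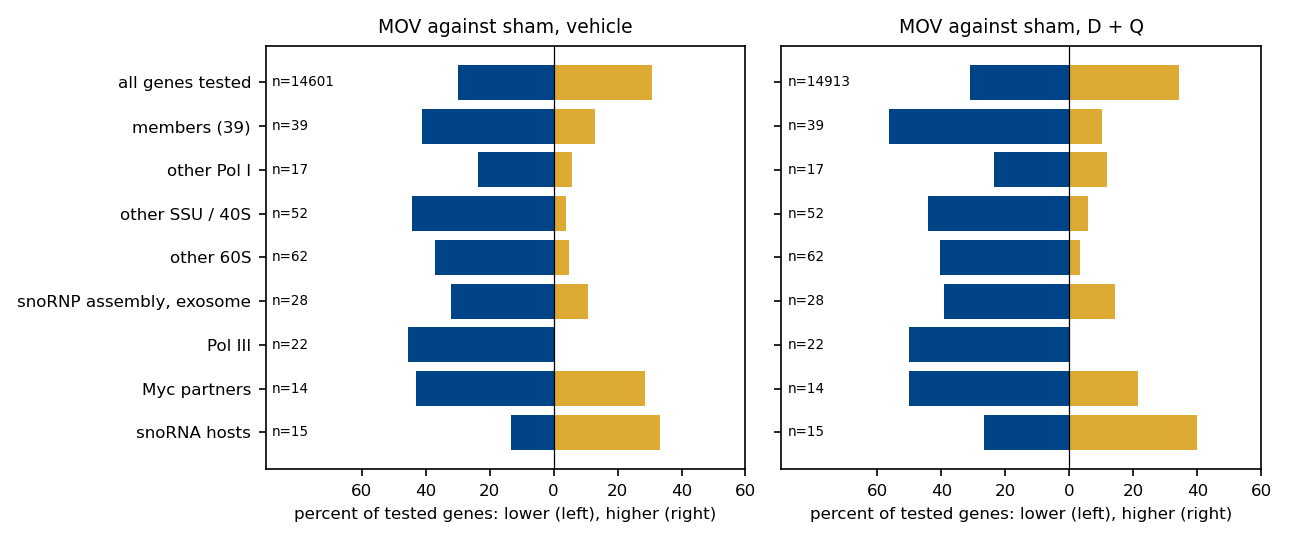
Percent of the genes tested in each list that passed an adjusted p under 0.05 as lower (left of 0) or higher (right of 0) in MOV than in sham mice under TMM scaling, in vehicle mice (left panel) and D + Q mice (right panel), with all genes tested as the top bar and the number tested beside each. The member bar reaches 41.0% lower in vehicle and 56.4% in D + Q mice, beside 29.8% and 30.9% for all genes. The RNA polymerase III bar, which leaves out the shared member Polr1c, has no higher part. Under total counts alone 20 members are higher and 1 lower in vehicle and 19 and 2 in D + Q mice. Of all genes, 52.6% are then higher and 9.95% lower in vehicle mice, and 56.3% and 11.1% in D + Q mice.

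How far these directions rest on the scaling was read from the gap between the members and all genes. The median member lay 0.14 below the median gene in vehicle and 0.23 below it in D + Q mice under TMM, and the gap was the same to 2 decimals under total counts, RLE size factors and DESeq2. Under total counts alone 7683 of 14601 genes were higher and 1453 lower in vehicle mice, and 8392 of 14913 were higher and 1654 lower in D + Q mice, and the members then split 20 higher and 1 lower, and 19 and 2. The rises of Myc, Polr1c and Fbl held under every scaling. The falls of Dkc1 in vehicle and of Rrn3 and Utp20 in D + Q mice also passed under total counts.

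**Figure D4:**
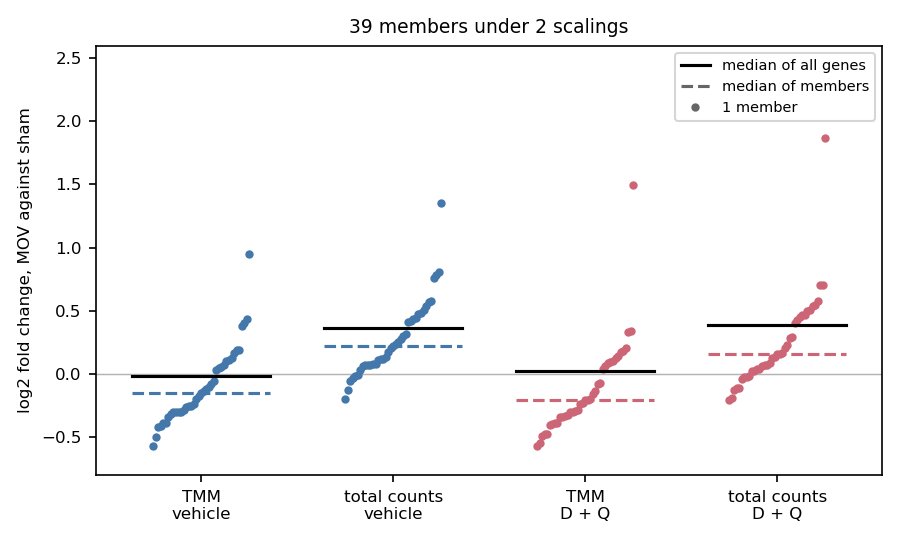
Log2 fold change between MOV and sham mice (y axis) of the 39 protein-coding members (1 point each, sorted) under TMM scaling and under total counts alone, in vehicle (blue) and D + Q mice (red). The solid line is the median of all genes tested and the dashed line the median of the members, which lies 0.14 below it in vehicle and 0.23 below it in D + Q mice under both scalings, while the whole picture moves up with total counts.

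D + Q against vehicle without overload gave no member that passed. Of the 39 members, 0 had an adjusted p under 0.05 between D + Q sham and vehicle sham mice by edgeR, and 0 by DESeq2 and limma-voom. Of all 13926 genes 30 (0.215%) passed by edgeR, 133 by DESeq2 and 42 by limma-voom. Leaving out 1 mouse moved the edgeR count to between 2 (without D + Q sham replicate 3 or 5) and 74 (without vehicle sham replicate 5). It was 3 without vehicle sham replicate 1, 2 or 3, 15 without vehicle sham replicate 4 and 12 without D + Q sham replicate 2. At an unadjusted p under 0.05 there were 5 members (12.8%) by edgeR and 4 by DESeq2, beside 10.2% of all genes by edgeR. These 5 were Heatr1 at 0.29 ± 0.09 (edgeR adjusted p = 0.229), Utp20 (0.16), Nop2 (-0.21), Dkc1 (-0.16) and Polr1a (-0.11). Without overlap was 1 member, beside 2.05% of all genes. For this one, Utp20, every D + Q sham mouse was above every vehicle sham mouse, at 21.6–23.5 against 18.3–21.5 CPM. The median log2 fold change of the members was 0.01.

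D + Q against vehicle in MOV mice is the comparison from which Rn18s was chosen, and its values are given as a description. None of 15238 genes passed (0.0%) by edgeR, and DESeq2 called 11. An unadjusted p under 0.05 was reached by 1340 genes (8.79%) by edgeR. Without vehicle MOV replicate 4 this number was 2634, and 2 genes passed. Among the 39 members 0 passed by edgeR, DESeq2 or limma-voom, and 5 (12.8%) had an unadjusted p under 0.05 by edgeR. These were Nop56, Rrp9, Gar1, Nop10 and Bop1, all lower with D + Q. Of the 39, 30 were below 0 and 9 above, with a median log2 fold change of -0.06 beside 0.00 over all genes. Gar1 had the largest negative value (-0.41, SE 0.14) and Myc the largest positive one (0.48, SE 0.42). The Myc value became 0.05 without D + Q MOV replicate 5 and 0.86 without vehicle MOV replicate 4. The groups did not overlap for 2 members, beside 1.44% of all genes. Nop56 measured 31.8, 31.3, 29.9, 32.9 and 30.4 CPM in vehicle MOV and 28.4, 27.2, 28.2, 25.8 and 28.8 CPM in D + Q MOV mice, without overlap. Wdr75 was likewise without overlap, at 13.3–14.9 and 14.96–16.8 CPM.

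Rn18s, 18S rRNA itself, is what the pathway makes. Its level here rests on how much of it passed library preparation, and whether polyadenylated RNA was selected or rRNA removed is not given in the sources used here. The copies of the rRNA gene are near identical and its row has no position in the annotation, so its counts are uncertain as a measure of any one locus. Of all counts, this row held 0.717%, 0.644%, 0.811%, 0.592% and 1.22% in the vehicle sham mice. It was 0.630%, 0.711%, 0.549%, 0.613% and 0.762% in the D + Q sham mice. The vehicle MOV mice had 0.697%, 0.924%, 0.728%, 0.724% and 0.959%. The D + Q MOV mice had 1.03%, 1.01%, 1.15%, 1.17% and 1.69%. Every D + Q MOV mouse was above every vehicle MOV and every D + Q sham mouse, of which the first is the contrast the row was chosen for, and 1 vehicle sham mouse was above 4 of the 5 D + Q MOV mice. The means were 0.797% ± 0.252 (SD, n = 5) in vehicle sham and 0.653% ± 0.0840 in D + Q sham mice. After MOV they were 0.806% ± 0.124 with vehicle and 1.21% ± 0.277 with D + Q, or 1.09% ± 0.0813 (SD, n = 4) without D + Q replicate 5.

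On the TMM scale, given as a description with no test, the log2 fold change of Rn18s between MOV and sham was -0.35 in vehicle and 0.52 in D + Q mice. Between D + Q and vehicle in MOV mice it was 0.52, or 0.37 without D + Q MOV replicate 5. In the sham mice, which the choice did not use, D + Q and vehicle differed by -0.144 percentage points (two-sided exact permutation test, p = 0.270, where the smallest p possible is 0.00794). The difference was not larger than the spread between mice, and leaving out single mice moved it between -0.196 and -0.038 percentage points, the latter without vehicle sham replicate 5. The share of counts from the mitochondrial genome, which enters the same total, was 14.8–16.2% in vehicle sham and 12.9–16.0% in D + Q sham mice. It was 9.28–11.1% in vehicle MOV and 9.27–9.92% in D + Q MOV mice, and its part in the Rn18s share was not tested.

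Other rRNAs and small structural RNAs were read beside Rn18s. The mitochondrial rRNAs, which another polymerase makes within mitochondria, fell in both treatments. The large one, mt-Rnr2, measured 1897, 1535, 1621, 1519 and 2444 CPM in vehicle sham and 1094, 1321, 871, 812 and 828 CPM in vehicle MOV mice. In D + Q mice the same row measured 2059, 2118, 1771, 1955 and 1935 CPM after sham surgery and 1090.3, 996, 935, 1105 and 1264 CPM after MOV. All MOV mice were below all sham mice (log2 fold change -0.87, SE 0.16, edgeR adjusted p = 5.10e-04 in vehicle, log2 fold change -0.83, SE 0.08, edgeR adjusted p = 7.46e-08 in D + Q). The small one, mt-Rnr1, had log2 fold changes of -0.50 ± 0.13 (edgeR adjusted p = 0.00504) and -0.49 ± 0.09 (edgeR adjusted p = 6.27e-05), lower also under total counts but past the threshold there in neither treatment. Rn7s1, 1 of the 2 near-identical rows of the 7SL RNA of the signal recognition particle, measured 16.6, 11.1, 18.5, 5.73 and 25.02 CPM in vehicle sham and 8.38, 27.6, 8.42, 15.1 and 17.6 CPM in vehicle MOV mice. Rn7s1 measured 7.64, 21.2, 8.72, 9.70 and 10.4 CPM in D + Q sham and 33.97, 19.3, 19.3, 15.9 and 56.6 CPM in D + Q MOV mice. Its groups overlapped throughout, with log2 fold changes of 0.00 (SE 0.45) in vehicle and 1.38 ± 0.45 (edgeR adjusted p = 0.0240) in D + Q mice. The latter call was lost without D + Q sham replicate 1, 3, 4 or 5 (log2 fold change 1.27 to 1.34, edgeR adjusted p = 0.0517 to 0.0560). The other row, Rn7s2, measured 1.03 (SE 0.51, edgeR adjusted p = 0.107) in D + Q mice, and Rpph1, the RNA of ribonuclease P, had 0 to 87 counts in any mouse. The mouse with the highest Rn18s share, D + Q MOV replicate 5, was also the highest of all 20 in Myc, Rn7s1, Rn7s2 and Rpph1, at 16.7, 56.6, 39.96 and 3.85 CPM. The vehicle sham mouse with the highest share, replicate 5, was the highest of its group in Rn7s1, Rn7s2, mt-Rnr1 and mt-Rnr2.

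**Figure D5:**
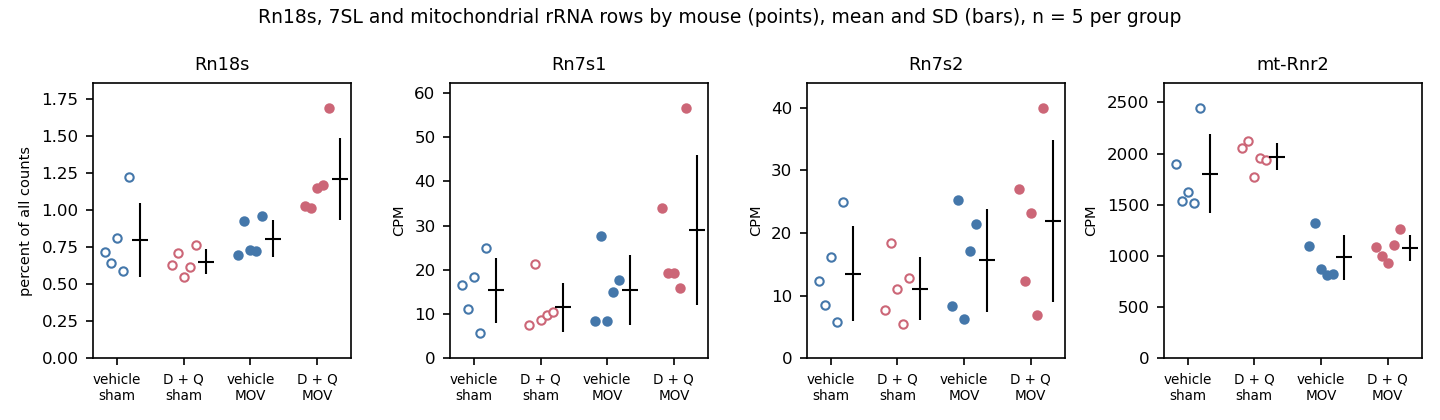
Values by mouse (points) with the group mean and SD (bars), n = 5 mice a group, for the Rn18s share of counts (percent) and for Rn7s1, Rn7s2 and mt-Rnr2 (CPM, TMM scaling), with y axes from 0. The D + Q MOV mice have Rn18s shares of 1.01% to 1.69% and the vehicle MOV mice 0.697% to 0.959%, 1 mouse stands high in each of the vehicle sham and D + Q MOV groups, and mt-Rnr2 is lower in all MOV mice.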

How the data were processed

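RNA of whole plantaris muscle was sequenced from 20 mice, 5 in each of 4 groups taken from the labels. Per the labels and the study's methods, reads were aligned with STAR 2.7.8a to GRCm39 and quantified in Partek, and the authors deposited estimated counts for 22660 rows, none of which summed to fewer than 10. Of the deposited values 29.8% were not whole, and all were rounded here to whole numbers. Whether counting used strand, and how rRNA was treated in library preparation, are not given in the sources used here. The lowest ratio of the observed to the Poisson variance between 2 mice of a group was 6.53, so no 2 libraries were taken for one.

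A gene was tested where 5 or more mice of a comparison had 10 or more counts. The main test was that of edgeR 4.0.16 in R 4.3.3 (robust quasi-likelihood test, TMM scaling, Benjamini-Hochberg adjustment over all genes tested, threshold 0.05). Each comparison used its own 10 mice and the interaction all 20, whereas the study's methods name DESeq2 and describe only vehicle and D + Q mice after MOV. CPM used the TMM factors. The scripts were tested on simulated data with known changes. The alternatives were DESeq2 1.42.0, limma 3.58.1 voom with sample weights, RLE size factors, total counts alone, other count minimums, a replicate block, all 20 mice in one fit, Rn18s left out and each mouse left out. The 40 members, the lists and the tests were chosen with earlier results of these data known. Every member was to be described, in full where it passed the test or its groups did not overlap, and from each other list the 2 genes with the largest rise and the 2 with the largest fall among those that passed, in each MOV comparison. Rmrp and Snhg4 each name 2 rows and were left out. Rn18s was chosen on D + Q against vehicle in MOV mice, so its values there and in each contrast with those mice carry no test. Promoter windows are those of RefSeq on GRCm38.p6. Protein sequences were not analysed here. P-values set a difference between groups against the spread between the mice of a group.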

Additional observations from a re-analysis of the deposited data

Results flagged for a closer look

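Of 164 sets of 5 mice examined, 1 for each of the 40 members and for the Rn18s share in each group, 7 had 1 mouse whose gap to the next was wider than Dixon's 95% critical value for 5 samples, which chance alone gives in about 1 in 20 sets. D + Q MOV replicate 5 stood apart in 3 of them, though the Rn18s level and the Rn18s share are the same row on different scales. It had 14362 CPM of Rn18s beside 8948 to 10339 CPM in the other 4 mice of the group. Its Rn18s share was 1.69% of counts beside 1.01% to 1.17%, and its Myc level 16.7 CPM beside 4.80 to 7.26 CPM. Without this mouse the log2 fold change of Myc between D + Q MOV and vehicle MOV mice went from 0.48 to 0.05, and that of Rn18s from 0.52 to 0.37. Without vehicle MOV replicate 4, the mouse with 11.4 CPM of Myc, the same Myc value was 0.86. In vehicle MOV mice, replicate 4 was high in Taf1d, at 20.0 CPM beside 15.6 to 16.6 CPM, and replicate 3 was low in Fbl, at 12.3 CPM beside 16.0 to 17.1 CPM. Gar1 was high in D + Q sham replicate 1, at 7.74 CPM beside 5.31 to 6.02 CPM, and Bop1 in D + Q MOV replicate 4, at 26.7 CPM beside 23.4 to 24.0 CPM.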

How the results depend on the processing

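Of the 47 calls of single members in the 2 MOV comparisons, all kept their direction and their side of the threshold under DESeq2, RLE size factors, no count minimum, the replicate block and Rn18s left out. With at least 50 counts in at least 5 mice 3 were lost (Rrp9 and Rrp12 in vehicle, Polr1b in D + Q mice), with limma-voom 2 (Rrp9 in vehicle, Polr1b in D + Q mice) and with all 20 mice in one fit 1 (Ubtf in D + Q mice). With at least 50 counts the members that rose in D + Q mice numbered 7, and the median gap between members and all genes kept its sign in every alternative.

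Total counts alone changed most: 20 members rose and 1 fell in vehicle and 19 rose and 2 fell in D + Q mice, 12 of the 47 calls held, 12 were lost and 23 turned. By its construction this scaling adds nearly the same amount to every gene, and 52.6% of all genes rose under it in vehicle and 56.3% in D + Q mice. The turned log2 fold changes in vehicle mice were 0.0769 for Polr1b, 0.17 for Ncl, 0.11 for Mybbp1a, 0.12 for Rrp9, 0.12 for Wdr43, 0.0673 for Rrp12, 0.0704 for Nob1, 0.0291 for Wdr12, 0.0596 for Ebna1bp2 and 0.14 for Ddx21. In D + Q mice they were 0.0726 for Polr1b, 0.20 for Ncl, 0.17 for Nop56, 0.13 for Nop10, 0.13 for Wdr43, 0.0686 for Nop14, 0.0828 for Bysl, 0.0375 for Nob1, 0.0644 for Wdr12, 0.0357 for Nop16, 0.0253 for Rrs1, 0.0243 for Ebna1bp2 and 0.16 for Ddx21. Of the 56 calls of named genes from the other lists, 39 held under total counts, 17 were lost and 0 turned. These were picked as the largest rises and falls of each list, so a change of sign was unlikely for them. The 0 is therefore not comparable with the 23 of the members.

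Leaving out each mouse in turn gave 16 to 22 members called in vehicle mice (4 to 7 higher, 11 to 17 lower) and 24 to 27 in D + Q mice (3 to 6 higher, 21 to 23 lower), with 0 throughout in the other 3 comparisons. The Rn18s difference between the sham groups ranged from -0.196 to -0.038 percentage points. Replicate numbers in the labels do not mark shared animals, the correlations of same-numbered mice were -0.15 to 0.185, and 3 of 20 were the best match of their mouse. With the replicate number as a block, 21 members were called in vehicle mice (5 higher, 16 lower) and 27 in D + Q mice (4 higher, 23 lower), 0 in the other 3 comparisons, and the paired Rn18s difference was -0.144 percentage points (exact sign-flip permutation p = 0.312). Among the named genes of the other lists the block removed the calls of Mycn in vehicle and of Rn7s1 and Ddx54 in D + Q mice. Depth limits Mxd3, Mycn and Rpph1, which had few counts in most sham mice.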
